A study of Caenorhabditis elegans with 2 samples.

Results

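The intergenic candidates near but outside promoters were 5620 of the 28005 candidate peaks (20.1%) from chromatin immunoprecipitation and sequencing (ChIP-seq) of UNC-62 in second-stage (L2) Caenorhabditis elegans larvae. They were chosen by position alone. The summit of a member lay inside no protein-coding gene and outside every promoter, taken as 1000 bp upstream to 200 bp downstream of a protein-coding transcript's 5′ end. It also lay at most 5000 bp from the nearest such 5′ end. Neither peak height nor replicate support entered the choice. The pooled candidate list is labelled as peaks and background, the input from which reproducible peaks were drawn. A candidate is therefore not by itself a site bound by UNC-62. The animals were whole larvae of strain OP600, pooled from both sexes. The strain has the mutation unc119(ed3) and the integrated transgene wgIs600, in which unc-62 is fused to TY1, EGFP and FLAG tags and unc119 is supplied. All material carried both, so no larvae without the tagged protein were compared. The labels list unc-62 under antibody and describe ChIP against the EGFP fusion. Which antibody was used, they do not say. The samples were 1 group of 2 biological replicates and no second condition, so members were compared with other candidates of the same pooled list. The lists are peaks, not read counts, so the depth behind each peak is unknown.

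UNC-62 is the worm homologue of MEIS and Homothorax, homeodomain proteins of the TALE class that bind DNA together with PBC proteins and with Hox proteins. The spelling TGACAG is the core of MEIS sites. TGATNNAT, where N is any base, is the form that PBC proteins read together with a Hox partner. In C. elegans most genes lie close together, and regulatory sequence is often found within a few kilobases of a gene's 5′ end. An intergenic summit past the promoter can therefore face the 5′ end of one neighbour and the 3′ end of the other, and its position alone does not say which gene, if either, it serves.

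Of the 5620 members, 106 were in the deposited list of 414 reproducible peaks, which is 25.6% of that list. Those 106 are called reproducible members here. The signal below is the height the authors deposited for each peak, and it ranks peaks within one list only. The 414 reproducible peaks were the 414 of highest signal in the pooled list, so reproducible members had signals of 28.3 to 107.6 (median 35.3), and the other 5514 members had 6.74 to 28.2 (median 9.15). These ranges follow from how the list was made. At its lower end, the last reproducible members were near hrg-5 (28.36), egl-15 (28.35) and K03H6.5 (28.29). The first members below it were near C04C11.25 (28.20) and W09D10.4, which had a pair of peaks (both 27.79). At the distance limit, the members nearest to sydn-1, rig-5 and glb-13 were 4999 bp from the 5′ end, and candidates near fax-1, stg-2 and K02B2.6 fell outside at 5003, 5006 and 5007 bp.

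Sequences of 7 of the strongest reproducible members are shown because they carry the sites on which the results turn. Each is 201 bp on the plus strand of WBcel235 (the same assembly as ce11), centred on the summit. Capitals mark matches of GAGAGA or of TGACAG or of TGATNNAT or of the motif GCGCAGGG on either strand, so TCTCTC or CTGTCA is a reverse strand match of the first or the second. The first 3 lie on the X chromosome and held no GA repeat. They are the windows nearest to W02H3.3 (chrX:11094092-11094292), xol-1 (chrX:8036297-8036497) and F55G7.5 (chrX:11937435-11937635).
W02H3.3: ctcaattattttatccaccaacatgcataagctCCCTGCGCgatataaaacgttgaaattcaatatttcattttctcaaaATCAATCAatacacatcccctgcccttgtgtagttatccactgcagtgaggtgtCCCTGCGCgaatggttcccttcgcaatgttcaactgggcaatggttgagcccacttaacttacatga
xol-1: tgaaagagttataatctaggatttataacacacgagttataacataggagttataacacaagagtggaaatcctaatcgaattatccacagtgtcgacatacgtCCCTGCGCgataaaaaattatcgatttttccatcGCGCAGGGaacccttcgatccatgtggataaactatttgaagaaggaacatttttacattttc
F55G7.5: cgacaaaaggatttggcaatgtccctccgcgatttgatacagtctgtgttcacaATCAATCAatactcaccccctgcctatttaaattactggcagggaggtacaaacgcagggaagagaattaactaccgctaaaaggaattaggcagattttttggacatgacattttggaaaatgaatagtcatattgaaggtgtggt

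In the W02H3.3 window the site TGATTGAT lay 13 to 20 bp left of the summit, and GCGCAGGG occurred on both sides of the summit. The xol-1 window held GCGCAGGG on both strands, the nearer match starting 4 bp to the right of the summit. The W02H3.3 and F55G7.5 windows, from separate places on the X chromosome, shared a run of 13 bp that holds TGATTGAT on the reverse strand. No other candidate of the 28005 held that run within 100 bp of its summit. These are the shared bases, with the site in capitals.
shared run: aATCAATCAatac

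The other 4 windows are from autosomes and the X chromosome and show GA repeats, the MEIS core or the PBC-type site. They lie nearest to T23G4.127 (chrIV:13694675-13694875), srlf-26 (chrIV:13682833-13683033), M106.2 (chrII:10851234-10851434) and sma-9 (chrX:10766165-10766365).
T23G4.127: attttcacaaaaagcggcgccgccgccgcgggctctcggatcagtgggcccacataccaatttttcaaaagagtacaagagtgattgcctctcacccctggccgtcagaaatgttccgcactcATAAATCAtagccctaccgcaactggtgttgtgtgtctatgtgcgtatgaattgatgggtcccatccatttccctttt
srlf-26: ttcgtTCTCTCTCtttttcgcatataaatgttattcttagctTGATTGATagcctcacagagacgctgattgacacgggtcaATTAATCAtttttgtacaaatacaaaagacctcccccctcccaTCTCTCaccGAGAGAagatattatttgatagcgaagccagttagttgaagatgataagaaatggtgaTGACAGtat
M106.2: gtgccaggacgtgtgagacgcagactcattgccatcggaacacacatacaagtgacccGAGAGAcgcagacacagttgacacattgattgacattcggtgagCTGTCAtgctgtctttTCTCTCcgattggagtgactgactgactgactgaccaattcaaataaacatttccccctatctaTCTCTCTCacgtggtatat
sma-9: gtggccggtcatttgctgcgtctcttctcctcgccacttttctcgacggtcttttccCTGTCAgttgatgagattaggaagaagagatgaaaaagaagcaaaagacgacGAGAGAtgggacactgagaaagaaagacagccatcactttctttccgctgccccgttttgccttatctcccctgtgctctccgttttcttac

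The srlf-26 window held the GA repeat, the MEIS core and the PBC-type site, the last in the spellings TGATTGAT and also TGATTAAT. In the M106.2 window TGACAG started 2 bp from the summit and GAGAGA occurred at 4 places, of which 2 overlap. The T23G4.127 window held TGATTTAT and neither of the other motifs.

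The member of highest signal lay between the 3′ ends of W04G3.11 and W02H3.3 (chromosome X 11094024 to 11094359). Its pooled signal was 107.6, with 73.8 in replicate 1 (rank 7) and 37.6 in replicate 2 (rank 8). The next lay 1109 bp past the 3′ end of ZK899.6, with gap-2 on its far side (X 9465682 to 9466017, pooled signal 100.4). It ranked 11 in replicate 1 and 14 in replicate 2. Both were among the highest peaks of either replicate.

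The third lay 4916 bp upstream of xol-1, the switch gene that sets sexual fate and dosage compensation. This peak (X 8036229 to 8036564, pooled signal 95.03) was nearer to the 3′ end of C34D10.1, at 4783 bp. Its signal was 80.6 in replicate 1 (rank 4) and 18.1 in replicate 2 (rank 125), both within the 414 highest of the list. A peak 1331 bp upstream of M106.2 followed (II 10851166 to 10851501, 91.0), at rank 17 in replicate 1 and 34 in replicate 2. A peak 3017 bp upstream of sma-9, which encodes the zinc finger protein Schnurri of the BMP-type body size pathway, had 84.9 (X 10766097 to 10766432). It ranked 24 in replicate 1 and 20 in replicate 2.

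Among the next members, the F55G7.5 peak (X 11937367 to 11937702) had a pooled signal of 80.01 and lay 595 bp past that gene's 3′ end. A peak between the 3′ ends of gtr-1 and F25E2.2 had 79.0. A peak between mtm-3 and xbx-5 had 76.2 and ranked 32 in replicate 1 and 45 in replicate 2. One between casc-3 and W08E3.4 ranked 65 in replicate 1 and 19 in replicate 2. The peak 3146 bp upstream of fos-1, a FOS-type transcription factor gene required for anchor cell invasion, had 73.9 (V 6000287 to 6000622). The 3′ end of cpg-4 lay nearer, at 1111 bp. This peak ranked 95 in replicate 1 and 11 in replicate 2, and its summit lay inside the non-coding RNA gene C10F3.15. A second reproducible member overlapped it (V 6000510 to 6000845, signal 33.7). Both drew on the same peak in each replicate, so they are not separate evidence.

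The remaining members of the top 20 had signals from 58.0 to 69.8. In order they lay near T23G4.127, pigx-1, F19H6.5 and ins-13, an insulin-like peptide gene. Then came srlf-26 beside nyn-1, sup-26, nlp-40 beside rcor-1, hif-1, F20B6.9 beside hpk-1, and mfb-1. The hif-1 peak, 1981 bp upstream of the gene for the hypoxia-inducible factor (V 20778258 to 20778593), had 58.4 pooled. Its signal was 39.4 in replicate 1 (rank 70) and 17.3 in replicate 2 (rank 138). A reproducible member also lay 1740 bp upstream of egl-9, whose product is the oxygen-dependent hydroxylase that marks HIF-1 for destruction (V 10466609 to 10466944, signal 41.9). It ranked 153 in replicate 1 and 760 in replicate 2, and egl-9 is named here after its values were seen.

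Of these 20 members, 15 had a 3′ end as the nearest gene end, beside 45.5% of all members, and 9 lay on X, beside 25.5%. More than 1000 bp from any gene end were 12 of the 20, beside 72.0% of members outside the reproducible list. Of the 20, 19 ranked among the 414 highest in both replicates. The exception was the mfb-1 peak, at rank 704 in replicate 2.

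**Figure D1:**
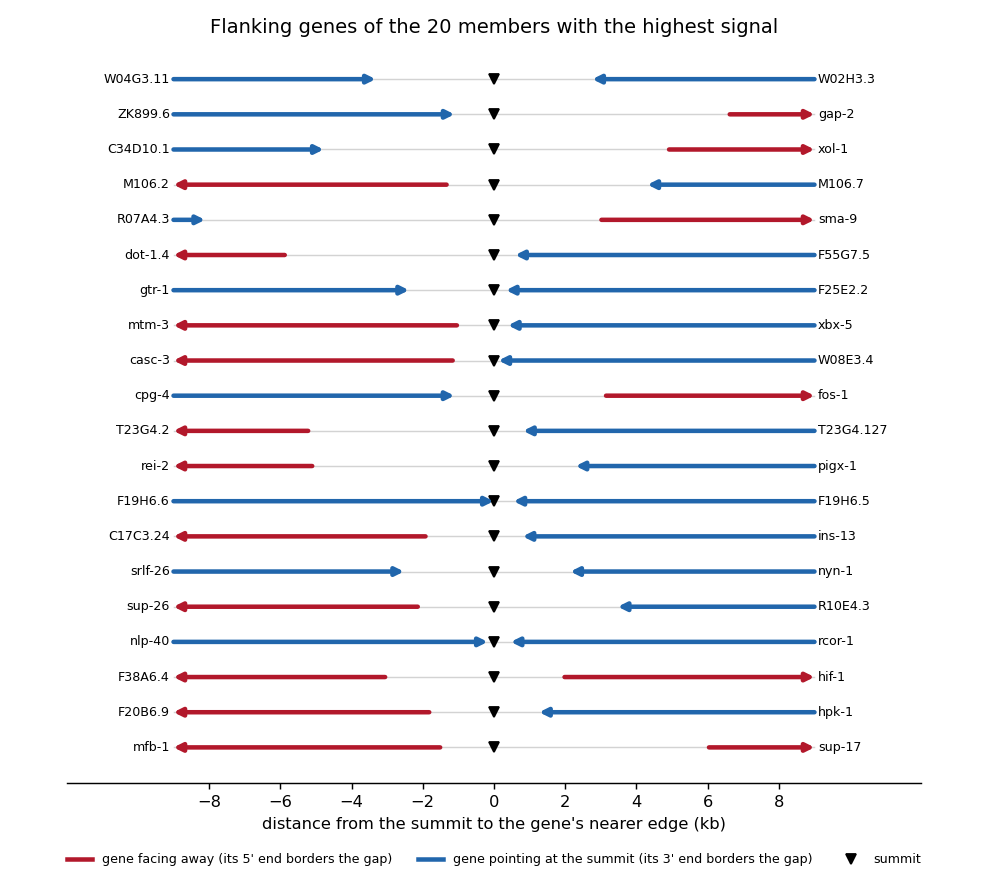
Flanking protein-coding genes of the 20 members with the highest signal, one member per line with the strongest at the top; the horizontal axis is the distance in kb from the summit (triangle) to the nearer edge of each gene. Arrows start or end at that edge and give the gene's strand, not its length; 15 of the 20 summits have a 3′ end as the nearest gene end.

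Members were in the reproducible list more often than the rest of the candidates and less often than intergenic promoter candidates. The share was 1.89% for members (106 of 5620, exact 95% interval 1.55 to 2.28), against 1.38% of all other candidates (308 of 22385) and 1.48% of all candidates together. The odds ratio against all other candidates was 1.38 (95% limits 1.10 to 1.72, adjusted p = 0.0085, two-sided Fisher exact test). Against intergenic promoter candidates, of which 4.16% were reproducible (172 of 4134), it was 0.443 (0.346 to 0.566, adjusted p = 1.6e-10, two-sided Fisher exact test). Introns outside promoters had 0.889% (64 of 7200), and the odds ratio of members against them was 2.14 (1.57 to 2.93, adjusted p = 2.3e-06, two-sided Fisher exact test). Against intergenic candidates over 5000 bp away, at 1.53% (19 of 1238), it was 1.23 (0.754 to 2.02) and did not pass (adjusted p = 0.48, two-sided Fisher exact test). P-values here were adjusted over the 4 comparisons. Peaks are not biological replicates, so they describe these lists. With promoters of 2000 bp upstream to 500 bp downstream, or with the 207 strongest reproducible peaks alone, the odds ratio against all other candidates was 1.23 and 1.17 and no longer passed.

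**Figure D2:**
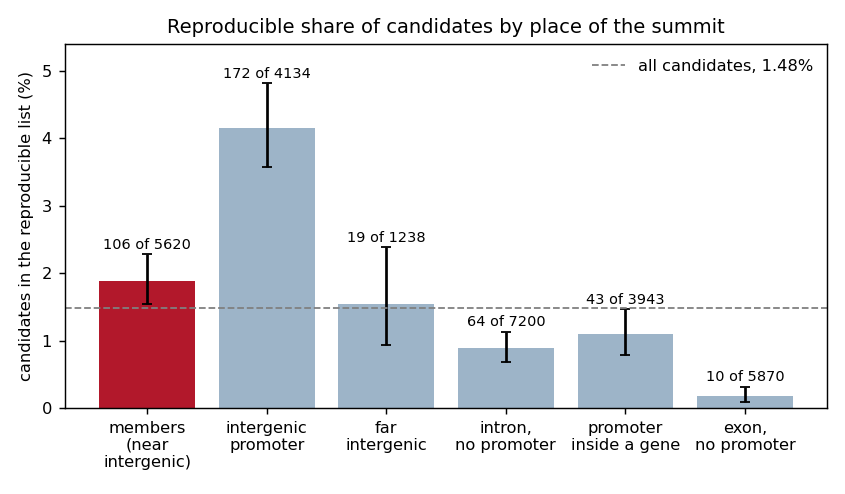
Percentage of candidates in the reproducible list by place of the summit, with exact 95% binomial intervals as error bars; the counts stand above the bars and the dashed line is the share over all candidates. Members (1.89%) lie below intergenic promoter candidates (4.16%) and above introns (0.889%) and exons (0.170%).

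The same order held for replicate support. Each replicate list held 30000 candidate peaks, and any overlap of at least 1 bp counted. How many overlaps position alone would give was not tested. A peak of both replicate lists overlapped 1881 members (33.5%), against 30.2% of all other candidates and 30.9% of all candidates (odds ratio 1.16, 95% limits 1.09 to 1.24, adjusted p = 4.8e-06, two-sided Fisher exact test). The share was 36.3% for intergenic promoter candidates (odds ratio of members 0.884, adjusted p = 0.0060, two-sided Fisher exact test) and 29.1% for introns (1.22, adjusted p = 6.0e-07, two-sided Fisher exact test). It was 32.6% for the far intergenic candidates, and the odds ratio of 1.04 did not pass (0.911 to 1.18, adjusted p = 0.59, two-sided Fisher exact test). The signal was above the median of the whole list, which 50% of candidates exceed by construction, in 52.9% of members and in 49.3% of all other candidates (odds ratio 1.16, adjusted p = 3.4e-06, two-sided Fisher exact test). This measure and the reproducible list rest on the same ranking. The median signal was 9.21 in members, 9.53 in intergenic promoter candidates, 8.97 in far intergenic candidates and 8.94 in introns, so a typical member differed little from a typical candidate elsewhere.

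Support for the reproducible members was uneven between the replicates. All 106 overlapped a peak of replicate 1 and 105 a peak of replicate 2. Among the 414 highest peaks of their own list were 87 in replicate 1 and 62 in replicate 2. In both replicates 50 were (47.2%, exact 95% interval 37.4 to 57.1), beside 86 of 172 reproducible intergenic promoter peaks, and 7 were in neither. Of the other 5514 members, 6 ranked that high in both replicates.

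In replicate 2, 23 reproducible members ranked below 1000 and 7 of them below 5000, against 3 and 0 in replicate 1. The median rank was 335 in replicate 2 and 247.5 in replicate 1. The member with no counterpart in replicate 2 lay 1722 bp upstream of W06H8.6 (V 6228564 to 6228899, pooled signal 35.8, rank 130 in replicate 1). The lowest replicate 2 rank was 18086 of 30000, for the peak between rpy-1 and dpy-10, a cuticle collagen gene (II 6707465 to 6707800). That peak had a signal of 25.1 and rank 214 in replicate 1.

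**Figure D3:**
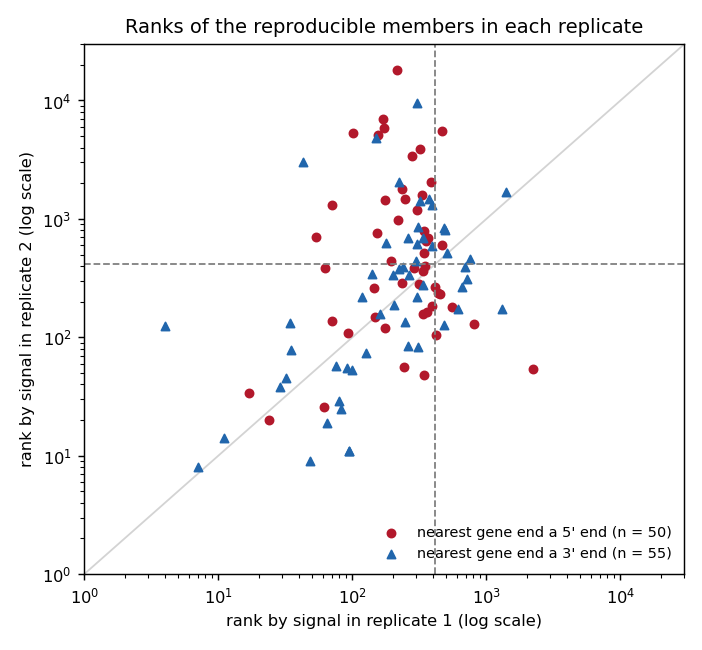
Rank by signal of the 105 reproducible members with a counterpart in both replicates, replicate 1 on the horizontal and replicate 2 on the vertical axis, both logarithmic; circles have a 5′ end and triangles a 3′ end as the nearest gene end. Dashed lines mark rank 414, and more points lie above the upper dashed line than to the right of the vertical one.

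The members lay in 3310 gaps between protein-coding genes, with 1 member in 1971 of them and at most 8. The 106 reproducible members fell in 102 gaps. Of these, 4 gaps held 2 each, those of F07H5.7 and appg-2, cpg-4 and fos-1, W06H8.6 and K08B12.3, and lpin-1 and letm-1. In 16 cases the reproducible member was the only candidate of its gap, and 5 shared the gap with a reproducible promoter peak. The gaps of reproducible members had a median length of 5602 bp, against 6185.5 bp over all members. The median distance to the closest 5′ end was 2073 bp for reproducible members and 2162 bp over all members.

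The nearest gene end was a 5′ end for 3064 members, of which 51 were reproducible (1.66%), and a 3′ end for 2556, of which 55 were (2.15%). The odds ratio was 0.770 (95% limits 0.524 to 1.13), which did not pass (p = 0.20, two-sided Fisher exact test). By gap, 27 of 1814 members between divergent genes were reproducible (1.49%), 67 of 3093 between genes in tandem (2.17%) and 12 of 713 between convergent genes (1.68%). The exact intervals of the 3 shares overlap. With the 207 strongest peaks alone the odds ratio by side was 0.47 (p = 0.012, two-sided Fisher exact test), and with promoters of 2000 bp upstream to 500 bp downstream 0.583 (p = 0.043, two-sided Fisher exact test). With the 414 highest peaks of replicate 2 alone it was 0.607 (p = 0.012, two-sided Fisher exact test). All 3 passed, with a higher share beside 3′ ends, while 1 candidate per gap gave 1.19, on the other side of 1. That last setting kept 2703 of 5620 members but 101 of 106 reproducible ones. The candidates it kept were thus not independent of the reproducible list.

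Distance and side were counted together in steps of 1000 bp. On the 5′ side, 30 of 1421 members at 1000 to 2000 bp were reproducible (2.11%), then 13 of 826 (1.57%), 5 of 501 (0.998%) and 3 of 316 (0.949%) at 4000 to 5000 bp. On the 3′ side the shares were 2.29%, 2.32%, 2.34% and 2.31% over the same steps. So the shares were lower with each step on the 5′ side and level on the 3′ side, but the intervals of the steps overlap and the difference was not tested. Another 173 members lay within 1000 bp of a transcript's 5′ end, all of them with a 3′ end as the nearest gene end. None was reproducible, and the exact 95% interval of 0 of 173 reaches 2.11% (counting error only), above the 1.89% over all members.

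By chromosome, the share of members that were reproducible ran from 1.54% on chromosome III (10 of 651) to 2.37% on chromosome I (15 of 634). Chromosome X held 1434 members, 25.5% of them, beside 21.0% of all candidates, and 27 of those were reproducible (1.88%).

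The PBC-type site TGATNNAT was more frequent in reproducible than in other members, and less frequent in reproducible than in other intergenic promoter peaks. Matches within 100 bp were found in 33 of 106 reproducible members (31.1%, exact 95% interval 22.5 to 40.9) and in 974 of 5514 other members (17.7%), with 16.9% over all candidates. The odds ratio was 2.11 (95% limits 1.39 to 3.20, adjusted p = 0.0016, two-sided Fisher exact test). Among intergenic promoter candidates it lay in 11 of 172 reproducible peaks (6.40%) and in 16.7% of the others, an odds ratio of 0.341 (0.184 to 0.631, adjusted p = 0.00016, two-sided Fisher exact test). The odds ratio of members was 6.19 times that of intergenic promoters (95% limits 2.94 to 13.02, n = 9754 peaks, likelihood ratio test of the product term in a logistic model, adjusted p = 9.3e-07). Against introns the ratio was 1.88 (0.868 to 4.08) and did not pass (same test, n = 12820 peaks, adjusted p = 0.20).

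The far intergenic class had the site in 6 of 19 reproducible peaks (31.6%) and 16.0% of the others. Promoter candidates inside genes had it in 12 of 43 reproducible peaks (27.9%) and 16.8% of the others, an odds ratio of 1.92 (0.982 to 3.76) that did not pass (adjusted p = 0.085, two-sided Fisher exact test). The difference between members and intergenic promoters was looked for after the data were seen. In the 414 highest peaks of replicate 2 alone, the odds ratio in members was 1.27 and the ratio to intergenic promoters 1.64, neither of which passed. With the wider promoters of 2000 bp upstream to 500 bp downstream they were 1.56 and 2.13, which did not pass either. The call in members was also lost with the 207 strongest reproducible peaks (1.96) and within 200 bp of the summit (1.55), where the ratio to intergenic promoters still passed (3.95 and 2.46).

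Of the 16 spellings that TGATNNAT allows, TGATTGAT was the most frequent in reproducible members, in 9 (8.49%), against 93 other members (1.69%). TGATTTAT was in 8 reproducible members and 142 others (7.55% and 2.58%), and TGATCGAT in 4 reproducible members and 36 others (3.77% and 0.653%). TGATAAAT and TGATAGAT both hold the GATA-type spelling, and they differed in direction. TGATAAAT was in 2 reproducible members and 142 others (1.89% and 2.58%), and TGATAGAT in 3 and 46 (2.83% and 0.834%). The nearest TGATNNAT was within 50 bp of the summit in 24 of the 33 reproducible members that had it, and in 530 of 974 other members.

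The GA repeat GAGAGA, a frequent element of C. elegans promoters, lay in 56 reproducible members (52.8%) and in 15.9% of other members. The odds ratio was 5.91 (95% limits 4.01 to 8.72, adjusted p = 2.5e-17, two-sided Fisher exact test). In intergenic promoters it was 3.32 (2.43 to 4.53), with 44.2% of reproducible peaks and 19.3% of the others. The MEIS core TGACAG lay in 16 reproducible members (15.1%) and 9.03% of other members, an odds ratio of 1.79 (1.04 to 3.07) that did not pass (adjusted p = 0.053, two-sided Fisher exact test). In intergenic promoters it lay in 9 of 172 reproducible peaks (5.23%) and 7.19% of the others. The GATA-type site WGATAR (W is A or T, R is A or G) lay in 50 reproducible members (47.2%) and 39.0% of other members, which did not pass (odds ratio 1.40, adjusted p = 0.088, two-sided Fisher exact test). In intergenic promoters it lay in 21.5% of reproducible peaks and 40.6% of the others. The ratio of the odds ratios of members to those of intergenic promoters was 1.78 for GAGAGA, 2.51 for TGACAG and 3.49 for WGATAR. All 3 passed (likelihood ratio test, n = 9754 peaks, adjusted p = 0.030, 0.034 and 6.4e-06). Like the ratio for TGATNNAT, these 3 were not planned before the data were seen, and they were not checked under other settings. The odds ratio of WGATAR in intergenic promoters was 0.400, so its ratio reflects a lower share in reproducible promoter peaks. Against introns the ratios were 0.582, 0.694 and 1.18 in the same order of motifs, and none passed (likelihood ratio test, n = 12820 peaks, adjusted p = 0.20, 0.54 and 0.61). The odds ratio of GAGAGA itself was 10.2 in introns and 12.9 in promoters inside genes, both above that of members. That of TGACAG was 2.58 in introns, 2.74 in promoters inside genes and 1.53 over all candidates. Each of these passed (two-sided Fisher exact test, adjusted p = 0.015, 0.033 and 0.020). In far intergenic candidates (1.75) and exons (1.33) TGACAG did not pass. Over all candidates GAGAGA was in 14.6%, TGACAG in 7.97% and WGATAR in 37.5%.

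GAGAGA and TGATNNAT occurred together in 16 reproducible members, GAGAGA without TGATNNAT in 40, TGATNNAT without GAGAGA in 17 and neither in 33. None of these motifs and no TGACAG was found near 31 summits, which says only that these letters are not in the window. By side, GAGAGA was in 33 of 51 reproducible members nearest to a 5′ end and in 23 of 55 nearest to a 3′ end, and TGATNNAT in 20 and 13. In the 201 bp windows GC content averaged 44.0% ± 7.07 (SD, 106 peaks) in reproducible members and 35.4% ± 6.91 (SD, 5514 peaks) in other members. Among members of at least 40% GC, GAGAGA lay in 60% of 75 reproducible members and 32.6% of 1339 others. TGATNNAT lay in 28% of the same reproducible members and 13.7% of the others. Both still passed, with odds ratios of 3.10 and 2.46.

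**Figure D4:**
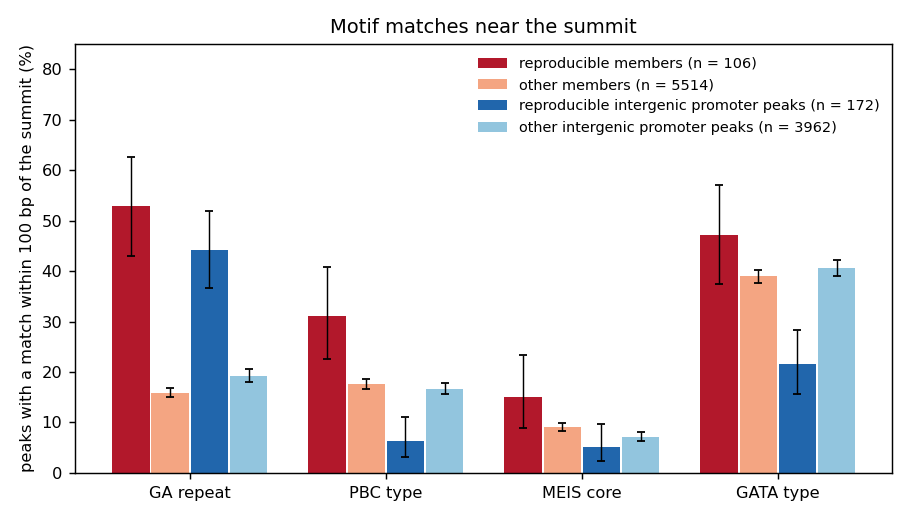
Percentage of peaks with a motif match within 100 bp of the summit, on either strand, for reproducible members, other members, reproducible intergenic promoter peaks and other intergenic promoter peaks; bars start at 0 and error bars are exact 95% binomial intervals. GA repeat is GAGAGA, PBC type TGATNNAT, MEIS core TGACAG and GATA type WGATAR; the PBC-type site is in 31.1% of reproducible members and 6.40% of reproducible intergenic promoter peaks.

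GCGCAGGG, seen in the printed windows and then counted in all, is the core of the MEX motif. In C. elegans that motif marks recruitment sites of the dosage compensation complex, which lowers expression from both X chromosomes of hermaphrodites. Matches within 100 bp were found in 7 of 27 reproducible members on X (25.9%, exact 95% interval 11.1 to 46.3) and in 5 of 1407 other members on X (0.355%). On the autosomes it lay in 0 of 79 reproducible members, where the exact interval reaches 4.56%, and in 7 of 4107 others (0.170%). Over all 28005 candidates it was in 41, or 0.146%. The 7 members lay near W02H3.3, xol-1, gtr-1, F19H6.5, F20B6.9, F22H10.2 and col-185, and had signals from 29.6 to 107.6. Outside the members, it was in 5 of 54 reproducible candidates on X and in 0 of 254 on autosomes. The motif was chosen after the sequences had been seen, so no test is given. Neither the dosage compensation complex nor the control library was analysed here.

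These 7 peaks had a counterpart in both replicate lists. The gtr-1 peak (X 806488 to 806823) ranked 48 in replicate 1 and 9 in replicate 2. The F20B6.9 peak (X 4209136 to 4209471), between that gene and hpk-1, ranked 91 and 55 in the same order, and the F19H6.5 peak (X 12362967 to 12363302) 80 and 29. The F22H10.2 peak (X 16681980 to 16682315) ranked 160 and 156. The weakest, 3499 bp upstream of the collagen gene col-185, ranked 751 in replicate 1 and 455 in replicate 2. The 3′ end of cdk-4 lay nearer to it, at 1260 bp. None of the 7 held GAGAGA, and 2 of them, near W02H3.3 and F22H10.2, held TGATNNAT.

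Non-coding genes lie in some of these gaps. A summit inside an annotated pseudogene counted as intergenic here, and 354 members were of that kind (6.30%, against 1.87% of all candidates), none of them reproducible. Many candidates lie inside protein-coding genes and members by rule do not, so a share over all candidates is not a like comparison here. Genes annotated as ncRNA held the summit of 10 reproducible members (9.43%) and of 3.41% of other members. Within 500 bp of the summit of reproducible members were tRNA genes in 4 cases (3.77%, beside 1.52% of other members and 0.986% of all candidates). In the same order, lincRNA genes were there in 4 (3.77%, 1.05% and 0.457%) and snoRNA genes in 3 (2.83%, 0.635% and 0.746%). The shares were lower than in other members for piRNA genes, in 5 (4.72%, 6.75% and 4.83%), and for pseudogenes, in 1 (0.943%, 9.67% and 3.17%). These counts are small and were not tested. The ins-13 summit lay 1 bp from sls-2.2, which encodes an SL2 spliced leader RNA used in trans-splicing. The hrg-5 summit lay 137 bp from mir-53, a microRNA gene. The xol-1 summit lay 288 bp from a tRNA gene, and the cmd-1 peak, 4740 bp upstream of the calmodulin gene (signal 46.1), had its summit inside linc-128. The genes named in this paragraph other than ins-13, hrg-5 and xol-1 were chosen after their values were seen.

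The gene lists were counted by the nearest 5′ end or either flanking gene, with no test. MEIS, PBC and Hox genes were beside 36 members (0.641%, and 0.471% of all candidates). Of these 2 were reproducible (5.56%, beside 1.89% over all members). Such genes were beside 2.66% of the whole reproducible list and 1.89% of reproducible members. The transgene carries unc-62 and unc-119 sequence, so signal at those loci can come from either copy. At unc-62 lay 8 members with signals of 7.18 to 24.99, none of them reproducible, and at unc-119 lay 2 with 6.81 and 7.49. Of the reproducible pair, the first lay 2004 bp past the 3′ end of the anterior Hox gene ceh-13, toward lgc-12 (III 7559877 to 7560212, pooled signal 54.7). Its signal was 45.9 in replicate 1 (rank 43) and 7.31 in replicate 2 (rank 3016), where it was outside the 414 highest. The second lay 9703 bp upstream of the Hox gene mab-5, and 289 bp from cyk-7 on the other side (III 7792989 to 7793324, signal 29.5). It ranked 716 in replicate 1 and 311 in replicate 2.

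Basic helix-loop-helix genes were beside 59 members (1.05%, and 0.721% of all candidates), and 5 of these were reproducible (8.47%, beside 1.89% over all members). They include hif-1 and the Hes-type gene lin-22, 4879 bp from its peak (signal 37.2), which lay 419 bp past the 3′ end of vrp-1. Another is the Mad-type gene mdl-1, whose 3′ end was 87 bp from the summit (34.1). Nuclear hormone receptor genes were beside 193 members (3.43%, and 3.08% of all candidates). Of these 4 were reproducible (2.07%, near the 1.89% over all members), led by nhr-14 (34.8), nhr-88 (30.3) and nhr-21 (29.3). In replicate 1 they stood at ranks 168, 305 and 235, while in replicate 2 they stood at 6918, 1187 and 1788.

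Collagen genes, which encode the cuticle, were beside 89 members (1.58%, and 1.85% of all candidates). Of these 3 were reproducible (3.37%, beside 1.89% over all members), at col-17 (39.5), dpy-10 (31.3) and col-185 (29.6). Other genes lay nearer to the last pair, rpy-1 (1990 bp) to the dpy-10 peak and cdk-4 (1260 bp) to the col-185 peak. Neuropeptide and insulin genes were beside 145 (2.58%, and 2.16% of all candidates). Of these 2 were reproducible (1.38%, beside 1.89% over all members), at ins-13 (63.6) and nlp-40 (62.02). Serpentine receptor genes were taken by name alone (sr, then 1 to 3 letters and a number), and the family of each was not checked. They were beside 369 members (6.57%, and 6.85% of all candidates). Of these 3 were reproducible (0.813%, beside 1.89% over all members), at srlf-26 (63.1), srw-60 (30.3) and srsy-1 (29.3). The srw-60 peak is the same one as at nhr-88 and lay 12259 bp from srw-60. Heterochronic genes were beside 17 (0.302%, and 0.371% of all candidates). Of these 1 was reproducible (5.88%, beside 1.89% over all members), 1414 bp upstream of lin-41 (35.4), a gene that times the larval-to-adult switch. The 3′ end of M04C9.2 lay nearer to that peak, at 814 bp. A share that rests on 1 peak says little about the list.

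The other 5 lists had no reproducible member. Other homeobox genes were beside 84 members (1.49%, and 1.37% of all candidates), with the highest signal at unc-4 (23.0). GATA factor genes were beside 17 (0.302% and 0.329%), led by elt-3 (18.9). Wnt pathway genes were beside 36 (0.641% and 0.514%), led by the Ror-type receptor gene cam-1 (26.8). The cam-1 peak lay 5627 bp from that gene, with the 5′ end of csa-1 nearer at 3795 bp. Histone genes were beside 8 (0.142% and 0.243%), led by his-24 (26.2). The his-24 peak lay 2609 bp from that gene, with the 5′ end of M163.8 nearer at 2147 bp. Ribosomal protein genes were beside 17 members (0.302%, and 0.796% of all candidates), led by rpl-31 (15.4). Over the whole reproducible list ribosomal protein genes were beside 3.38% of peaks, so their peaks lay in other classes.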

How the data were processed

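The authors deposited peak lists in narrowPeak form for UNC-62 ChIP-seq: a candidate list per replicate, a pooled candidate list and a list of reproducible peaks from an irreproducible discovery rate procedure, per the labels. The label of the pooled candidate list names peaks and background as input to that procedure. The ce11 lists were used. The signal of each peak and its −log10 q value are the authors' own, per the deposited files, and only the signal gave an order. Aligner, peak caller, thresholds and read depth: not given in the sources used here.

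Summits were placed on Ensembl 115 protein-coding genes of WBcel235. No overlap of the summit with a gene, a promoter of 1000 bp upstream to 200 bp downstream and a limit of 5000 bp set the members. A replicate counterpart overlapped by at least 1 bp. Motif matches on either strand counted up to 100 bp from a summit. Shares have exact 95% intervals and odds ratios Woolf intervals. Comparisons used two-sided Fisher's exact tests (scipy 1.17.1) with Benjamini-Hochberg adjustment within families of 4, and logistic models (statsmodels 0.14.6). Placement was tested on 600 simulated summits, all placed as by a plain search. Members, motifs and gene lists were chosen with earlier results of these data known. The text names genes beside the 20 strongest members, up to 3 reproducible members per gene list, and members at the limits. Alternatives changed the promoter window, distance, biotype, place, list, motif window, base composition and replicates.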

Additional observations from a re-analysis of the deposited data

How the results depend on the processing

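Of 106 alternative values over 13 results, 83 kept their direction and their side of the threshold (a count stayed within 1.5 times), and 32 were added after seeing the data. With promoters of 2000 bp upstream to 500 bp downstream there were 3623 members and 64 reproducible ones. The odds ratio was 1.23 against all other candidates, 0.583 by side (now past the threshold) and 1.56 for TGATNNAT, and the TGATNNAT ratio of members to intergenic promoters was 2.13. All but the side value no longer passed. With 1 candidate per gap or gene there were 2703 members and 101 reproducible ones, so the candidates kept were not independent of the reproducible list. The odds ratios against far intergenic candidates (0.696) and by side (1.19) changed direction. With the 207 strongest reproducible peaks, 47 were members, with odds ratios of 1.17 against all other candidates and 1.96 for TGATNNAT, which no longer passed. By side it was 0.47 and for TGACAG 2.72, both now past the threshold. TGACAG also passed within 50 bp of the summit (2.26) and where genes of any biotype made a summit genic (2.04). WGATAR within 50 bp was 0.963, on the other side of 1, and TGATNNAT within 200 bp 1.55, no longer past the threshold. The cause was not tested for these changes.

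With either replicate left out, in turn, the odds ratio ranged from 1.29 to 1.35 against all other candidates, 0.483 to 0.504 against intergenic promoters, 0.84 to 1.2 against far intergenic candidates and 1.82 to 1.89 against introns. It was 0.607 to 0.72 by side, 4.29 to 5.28 for GAGAGA, 1.64 to 1.69 for TGACAG, 1.27 to 1.81 for TGATNNAT and 1.19 to 1.57 for WGATAR. The TGATNNAT ratio of members to intergenic promoters was 1.64 to 3.73. Here the 414 highest peaks of the replicate kept stood in for the reproducible list. Members numbered 5864 to 6066, and 111 to 114 were among those highest peaks. Without replicate 1, TGATNNAT (1.27) and its ratio (1.64) no longer passed, side passed (0.607), and the value against far intergenic candidates (0.84) changed direction. Without replicate 2, WGATAR passed (1.57). Support in both replicates has no value with 1 left out. No paired analysis was possible because the series has 1 group. The unknown depth, the control library that was not analysed here, and 2 replicates of unlike rank order limit every share.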
